A study of Mus musculus with 6 samples.

Results

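Keratins are the intermediate filament proteins of epithelial cells, and the deposited expression table held 38 genes of this family among its 23381 gene symbols. Members were taken by name, as Krt followed by a number and at most 1 letter, so that genes named Krtap, Krtdap or Krtcap and the pseudogene Krt8-ps were not counted. Of the 38 keratins, 17 averaged 0.5 RPKM or more over the 6 libraries and could be tested, and 21 lay below that level. RPKM is the number of reads divided by gene length and by the reads of the library, so that levels can be compared between genes.

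The libraries came from tumours of 4T1 cells, a mouse mammary carcinoma line, grown in the inguinal mammary fat pad of Balb/c mice aged 10 weeks after injection of 500000 cells. In 3 libraries the mice had been given DMSO, the vehicle. In the other 3 they had been given Vismodegib, an inhibitor of the Hedgehog signal transducer Smoothened, at 2 mg per mouse. Dosing was 3 times a week for 3 weeks and began once tumours had formed. Every tumour thus grew from 1 cell line in 1 strain, and whole tumours were extracted, so the RNA also holds the host tissue around and within the graft. The labels do not say that each library came from its own animal, and p-values measure the spread between these libraries. Values of a gene are given in the order of replicates 1, 2 and 3.

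Keratin filaments are built from pairs of an acidic type I and a basic type II chain, and neither type polymerises alone. Which pair a cell makes follows its place: Krt8 and Krt18 in simple epithelia, Krt5 and Krt14 in basal cells, Krt1 and Krt10 in the differentiating layers of skin, and Krt6 with Krt16 or Krt17 in skin under stress and in appendages. In the mammary gland, luminal cells are known for Krt8, Krt18 and Krt19 and myoepithelial cells for Krt5 and Krt14. In mouse the type I genes lie together on chromosome 11 and the type II genes on chromosome 15, with Krt18, a type I gene, next to its partner Krt8 at the end of the type II cluster. The 38 members comprised 18 type I and 20 type II genes, 17 of them on chromosome 11 between 99232761 and 100269871 and 21 on chromosome 15 between 101347444 and 102032027 (GENCODE M21, mm10).

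Short stretches before the gene starts show what keratin promoters share in sequence. RefSeq promoters (GRCm38.p6) were found for 24 of the 38 keratins, 10 of them among the 17 tested, while Krt1, Krt6a, Krt6b, Krt15, Krt16, Krt17 and Krt19 had no entry. The letters ATAAA, the core of a TATA box, occurred on the gene's strand within 60 bases before the start in 16 of the 24, against 7.48% of 32851 promoters in the table. In 13 of them they began 25 to 32 bases before the start. Of the 10 tested keratins with an entry, 5 had the match: Krt5, Krt7, Krt10, Krt13 (at 1 of 2 starts) and Krt23. For Krt7 the stretch lies inside the GENCODE gene, and the match begins only 7 bases before the RefSeq start. For Krt23 the stretch runs past the GENCODE start. The short motif ATAAA was chosen after the sequences had been seen. The motif TATAAA on either strand within 250 bases occurred in 11 of the 24 keratins and in 12.4% of all promoters. GGGCGG on either strand occurred in 2 of the 24, Krt7 and Krt75, and in 32.7% of all promoters, and the palindromic GCCNNNGGC, searched on both strands, in 3 of the 24 and 13.7%. Krt8, Krt14, Krt18, Krt42 and Krt77 had no ATAAA in this stretch, which for Krt8 and Krt14 lies inside the GENCODE gene and for Krt18 runs past its GENCODE start. A match describes letters and no binding. The 60 bases before the start are printed 5′ to 3′ for the 4 tested keratins of basal and stratified layers whose stretch ends at or before the GENCODE start, 3 of them with a match, with ATAAA in capitals. They are Krt5 at chr15:101712906-101712965, Krt13 at chr11:100121567-100121626, Krt10 at chr11:99389365-99389424 and Krt77 at chr15:101869706-101869765, all on the minus strand, and Krt77 has no match.
Krt5: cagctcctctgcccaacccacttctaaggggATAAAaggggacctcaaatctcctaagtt
Krt13: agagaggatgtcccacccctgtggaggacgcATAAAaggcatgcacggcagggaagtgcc
Krt10: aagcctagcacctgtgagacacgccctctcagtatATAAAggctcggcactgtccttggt
Krt77: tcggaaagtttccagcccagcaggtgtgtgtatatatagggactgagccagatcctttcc

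One library stood apart for this family. In Vismodegib replicate 3, keratins of stressed and differentiating epidermis were at levels not seen in the other 5 libraries, together with genes of the cornified layer of skin. It was the highest library for 9 of the 17 tested keratins, against 12.9% of all genes tested. These 9 include Krt1, Krt6a and Krt6b, which were tested only because this library raised their mean. Among the 14 keratins that averaged 0.5 RPKM or more in the other 5 libraries it was the highest for 6, against 12.3% of such genes. Krt5 counts among the 6, though its 9.32 RPKM was level with the 9.31 RPKM of DMSO replicate 2. DMSO replicate 1 was the highest for none (8.81% of all genes), DMSO replicate 2 for 2 (29.8%), DMSO replicate 3 for 2 (14.4%), Vismodegib replicate 1 for 1 (26.9%) and Vismodegib replicate 2 for 3 (7.21%). Results that rest on it are given with and without it. Depth, recovered from the steps of low values by taking the smallest step as 1 read, ran from 34800000 reads in DMSO replicate 2 to 58000000 reads in Vismodegib replicate 3. All read counts given here rest on that step and would shift together by a whole-number factor if it stood for another number of reads.

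No keratin passed the comparison of Vismodegib with DMSO. The test was limma on log2(RPKM + 0.5), with Benjamini-Hochberg adjustment over all 11818 genes tested, and every tested keratin had an adjusted p = 0.9999. Of all genes tested, 0% passed. On simulated data this fit called 8.28% of 2-fold changes, so most changes of that size would be missed. At an unadjusted p under 0.05 there were 2 keratins, Krt15 and Krt7, both higher in the treated tumours, beside 2.25% of all genes tested in either direction and 1.94% in the higher direction. The 3 treated libraries lay above the 3 controls without overlap in 3 of the 17 keratins, Krt7, Krt13 and Krt15, beside 4.29% of all genes. No keratin had all treated libraries below all controls, beside 0.745% of genes. The log2 difference was above 0 in 14 of the 17 and below 0 in Krt8, Krt18 and Krt42. The median of the 17 differences was 0.78, whereas 58.4% of all genes tested were above 0 with a median of 0.05. Of the 17, Krt1, Krt6a and Krt6b passed the filter only through Vismodegib replicate 3. Without this library and with the filter set again on the other 5, 14 keratins were left, 8 with differences above 0 and 6 below. Of all genes in that fit 64.9% were above 0, and the keratin median was 0.40 beside 0.11 for all genes. With Vismodegib replicate 3 left out, Krt7, Krt13, Krt14, Krt15 and Krt19 kept differences of 0.83, 0.58, 0.71, 1.51 and 0.82. Also above 0 were Krt5, Krt17 and Krt23, at 0.69, 0.30 and 0.50.

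**Figure D1:**
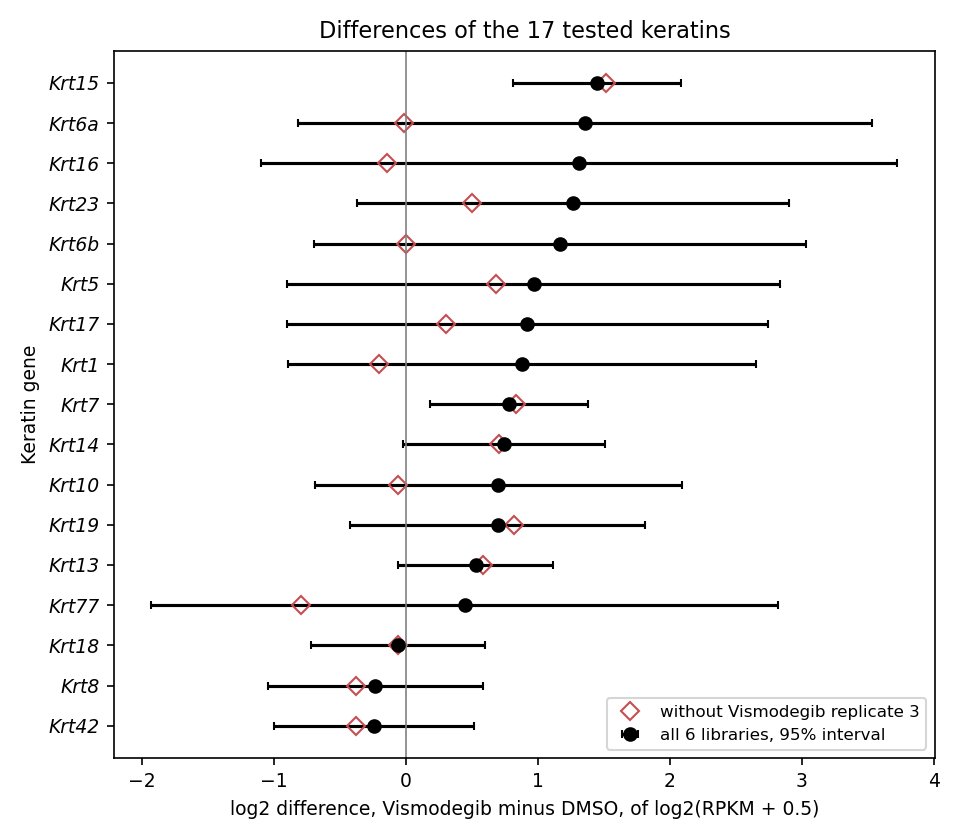
Log2 difference (Vismodegib minus DMSO, of log2(RPKM + 0.5), horizontal axis) for each tested keratin, from the lowest at the bottom to the highest at the top. Black points with bars give the difference with its 95% interval from limma over all 6 libraries, and open red diamonds the difference without Vismodegib replicate 3. The interval excludes 0 for Krt15 and Krt7, and the diamonds of Krt1, Krt6a, Krt6b and Krt16 lie near 0 or below it.

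**Figure D2:**
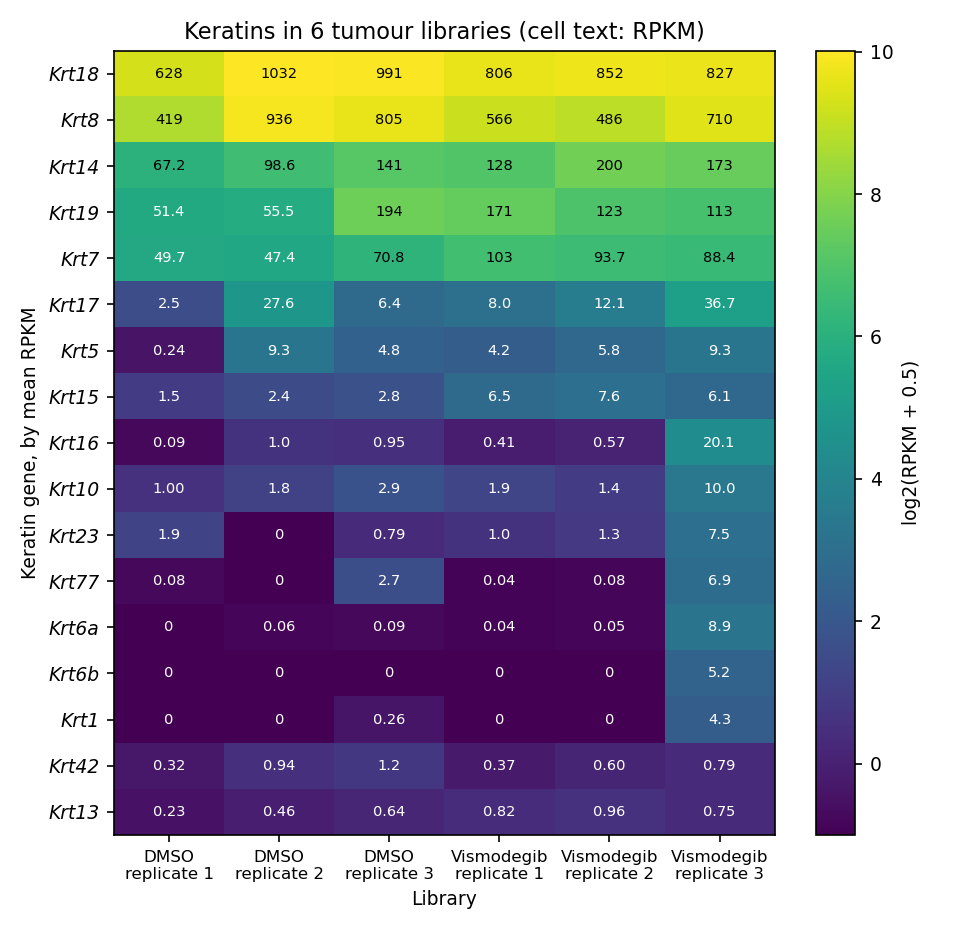
RPKM of the 17 tested keratins (rows, ordered by mean) in the 6 libraries (columns), with colour giving log2(RPKM + 0.5) and the text in each cell the RPKM. Krt18 and Krt8 lead in each library, and Krt16, Krt6a, Krt6b and Krt1 are bright in Vismodegib replicate 3 relative to the other columns.

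The simple epithelial pair made up most of the keratin RNA in each library. Krt18 (ENSMUSG00000023043.7, chromosome 15, 102028180 to 102032027, plus strand) was at 628, 1032 and 991 RPKM in the vehicle tumours, and at 806, 852 and 827 RPKM in the treated tumours. Its partner Krt8 (ENSMUSG00000049382.10, chromosome 15, 101996698 to 102004482, minus strand), which lies 23.7 kb away, was at 419, 936 and 805 RPKM in the vehicle tumours and at 566, 486 and 710 RPKM in the treated tumours. For both genes DMSO replicate 1 was the lowest library and DMSO replicate 2 the highest, and all 3 treated libraries lay between them. The log2 differences were -0.06 for Krt18, with a 95% interval from -0.72 to 0.60, and -0.23 for Krt8, with an interval from -1.05 to 0.58. The treated libraries were also closer together: the SD of Krt18 was 23.3 RPKM in the treated tumours against 222 RPKM in the vehicle tumours (n = 3 each), a difference in spread that was not tested. RNA of the 2 chains was present in similar amounts. The Krt8 to Krt18 ratio of RPKM was 0.80 ± 0.12 in the vehicle and 0.71 ± 0.145 in the treated tumours (mean ± SD, n = 3 libraries each), with overlap.

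As a share of the summed keratin RPKM, Krt8 and Krt18 together made up 85.5%, 88.9% and 80.7% in the vehicle tumours, and 76.2%, 74.9% and 75.6% in the treated tumours. The treated tumours thus lay below the controls without overlap. The shares of Krt7, Krt14 and Krt19 together were 13.7%, 9.10% and 18.2% in the vehicle tumours and 22.4%, 23.3% and 18.4% in the treated tumours, where the closest libraries, DMSO replicate 3 and Vismodegib replicate 3, were nearly level. These shares are sums over members and are given without a test. The remaining 33 keratins held 0.732% to 2.03% of the total in the vehicle tumours and 1.42% to 1.76% in Vismodegib replicates 1 and 2, but 5.98% in Vismodegib replicate 3. The keratin total itself was 1225, 2215 and 2227 RPKM in the vehicle tumours and 1800, 1786 and 2033 RPKM in the treated tumours, with overlap. In each library the type I genes summed to more than the type II genes, by a ratio of 1.23 to 1.6 in the vehicle tumours and 1.43 to 2.05 in the treated tumours.

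**Figure D3:**
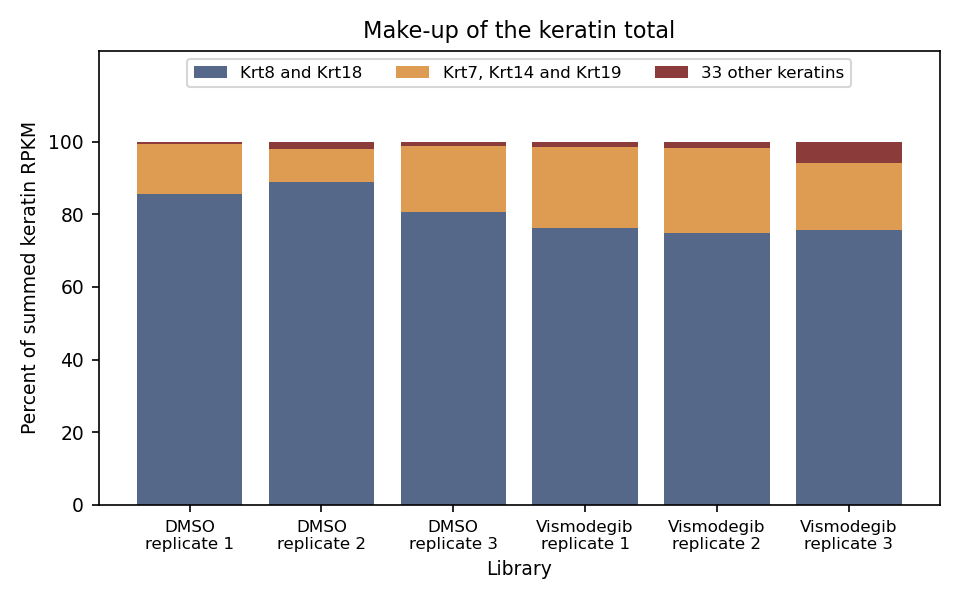
Share of the summed keratin RPKM (vertical axis, percent) held by Krt8 and Krt18, by Krt7, Krt14 and Krt19, and by the 33 other keratins in each library. The Krt8 and Krt18 segment reaches 74.9% to 76.2% in the Vismodegib libraries and 80.7% to 88.9% in the DMSO libraries, and the top segment is thickest in Vismodegib replicate 3.

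Among the other simple keratins, Krt7 was higher in the treated tumours. Krt7, a type II keratin of ductal and glandular epithelia (ENSMUSG00000023039.17, chromosome 15, 101411043 to 101430313, plus strand), was at 49.7, 47.4 and 70.8 RPKM in the vehicle tumours and at 103, 93.7 and 88.4 RPKM in the treated tumours. All 3 treated libraries stood above the highest control. The log2 difference was 0.78 (SE 0.26, 95% interval 0.19 to 1.38), with an unadjusted p = 0.016 and an adjusted p = 0.9999 by limma. With each library scaled to 12 epithelial marker genes it was 0.34 (unadjusted p = 0.29 by limma). In whole tumours, more cells of a type and more RNA per cell cannot be told apart. Krt19, the smallest keratin and a partner of Krt7 and Krt8, was at 51.4, 55.5 and 194 RPKM in the vehicle tumours and at 171, 123 and 113 RPKM in the treated tumours. The highest Krt19 value was in a control, DMSO replicate 3, and the 2 other controls were the lowest. Its log2 difference was 0.70, with an interval from -0.42 to 1.82. Krt23, a type I keratin of glandular and intestinal epithelium, was at 1.89, 0 and 0.790 RPKM in the vehicle tumours and at 1.01, 1.27 and 7.54 RPKM in the treated tumours, and its difference was 1.27, or 0.50 without Vismodegib replicate 3.

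Krt15 had the smallest p of the family, and its groups did not overlap. Krt15, a type I keratin of basal cells and of stem cells of the hair follicle (ENSMUSG00000054146.8, chromosome 11, 100131758 to 100135928, minus strand), read 1.47, 2.36 and 2.81 RPKM in the vehicle tumours and 6.54, 7.63 and 6.11 RPKM in the treated tumours. The lowest treated library was above the highest control, and the values rest on 93.4 to 194 reads per library in the vehicle tumours and 462 to 602 in the treated tumours. The log2 difference was 1.45 (SE 0.28, 95% interval 0.81 to 2.08). By unadjusted p (0.00063, limma) it ranked 3rd among the 11818 genes, and it did not pass adjustment (adjusted p = 0.9999). It was between 1.06 and 1.67 under 21 other settings, in each of which the unadjusted p stayed below 0.05. One of these settings, with library weights, put Krt15 past the threshold, at a difference of 1.24 and an adjusted p = 0.014 by limma. That fit gave DMSO replicate 3 a weight of 7.28 and the other controls weights of 0.32, and it called 420 genes.

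Markers of epithelial and other cells were set beside Krt15. The epithelial markers were higher too: 11 of 12 had differences above 0, with a median of 0.38, beside 58.4% and 0.05 for all genes tested. Their sum ran from 869 to 1312 RPKM in the vehicle tumours and from 1455 to 1692 RPKM in the treated tumours. None of the 12 passed, and none was at 0 in any library. Relative to Cdh1, the adhesion molecule of epithelial cells, Krt15 was at 0.036, 0.054 and 0.035 in the vehicle tumours and at 0.103, 0.111 and 0.124 in the treated tumours. Relative to Epcam, another epithelial surface protein, it was at 0.010, 0.012 and 0.0098 in the vehicle tumours and at 0.014, 0.017 and 0.024 in the treated tumours. Neither ratio overlapped between the groups. The ratios of Krt7 and Krt13 to Cdh1 did not overlap either, with the treated tumours higher, whereas their ratios to Epcam overlapped. Scaled to the 12 epithelial markers, the difference of Krt15 was 1.06 (unadjusted p = 0.0052 by limma), while Krt7 and Krt13 were at 0.34 and 0.30. Of the milk protein genes, Csn1s1 and Csn2 were at 0 in all controls and in Vismodegib replicate 3 and reached 0.158 and 0.153 RPKM in Vismodegib replicate 1. Of 9 genes of the normal luminal cell, Areg reached 17.2 RPKM in DMSO replicate 2 and 9.81 RPKM in Vismodegib replicate 1. The other 8 summed to 1.09, 0.671 and 0.446 RPKM in the vehicle tumours and to 4.72, 1.39 and 0.592 RPKM in the treated tumours, so that Vismodegib replicate 1 was highest, with Csn3 at 1.30 RPKM, Lalba at 1.68 RPKM and Prlr at 0.745 RPKM. Over 6 genes of the myoepithelial cell the sum was 32.1 to 64.2 RPKM in the vehicle tumours and 40.7 to 93.5 RPKM in the treated tumours. Hair follicle genes, 5 of 11 listed having a row, summed to 3.45, 4.08 and 2.66 RPKM in the vehicle tumours. In the treated tumours they summed to 5.29, 4.63 and 3.11 RPKM, with overlap. The fat cell markers summed to 131 and 108 RPKM in Vismodegib replicates 1 and 2 but to 28.7 RPKM in Vismodegib replicate 3, where Krt15 was at 6.11 RPKM, and the controls spanned 24.9 to 38.6 RPKM. Fibroblast markers were also higher: 9 of 9 tested had differences above 0, with a median of 0.70, beside 58.4% and 0.05 for all genes tested. None of the 9 passed. Their sums of 122, 123 and 116 RPKM in the vehicle tumours lay below the 224, 133 and 235 RPKM of the treated ones. The part of these markers in the result was not tested.

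The other basal keratins were less separated. Krt14, the type I keratin of basal and myoepithelial cells (ENSMUSG00000045545.8, chromosome 11, 100203162 to 100207548, minus strand), read 67.2, 98.6 and 141 RPKM in the vehicle tumours and 128, 200 and 173 RPKM in the treated tumours. The groups overlapped through DMSO replicate 3, and the log2 difference was 0.74 with an interval from -0.02 to 1.51 (unadjusted p = 0.055 by limma). Krt5, the type II partner of Krt14, was at 0.243, 9.31 and 4.84 RPKM in the vehicle tumours and at 4.21, 5.82 and 9.32 RPKM in the treated tumours. DMSO replicate 1 was far below the rest, and without it the Krt5 difference of 0.97 turned to -0.13. RNA of the 2 partners was not present in similar amounts: Krt14 exceeded Krt5 by 10.6 to 34.4 times in 5 libraries and by 277 times in DMSO replicate 1. Trp63, which encodes the basal cell transcription factor p63, was at 0.640 ± 0.279 RPKM in the vehicle tumours and 0.671 ± 0.294 RPKM in the treated tumours (n = 3 each), with a difference of 0.04. Krt13, a type I keratin of the upper layers of internal stratified epithelia (chromosome 11, 100117327 to 100121566), was low but separated, at 0.235, 0.457 and 0.638 RPKM in the vehicle tumours and at 0.818, 0.964 and 0.748 RPKM in the treated tumours. Its log2 difference was 0.53 with an interval from -0.06 to 1.12. Krt42, a type I keratin gene beside Krt17, was at 0.318, 0.944 and 1.23 RPKM in the vehicle tumours and at 0.368, 0.597 and 0.792 RPKM in the treated tumours, with a difference of -0.245.

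**Figure D4:**
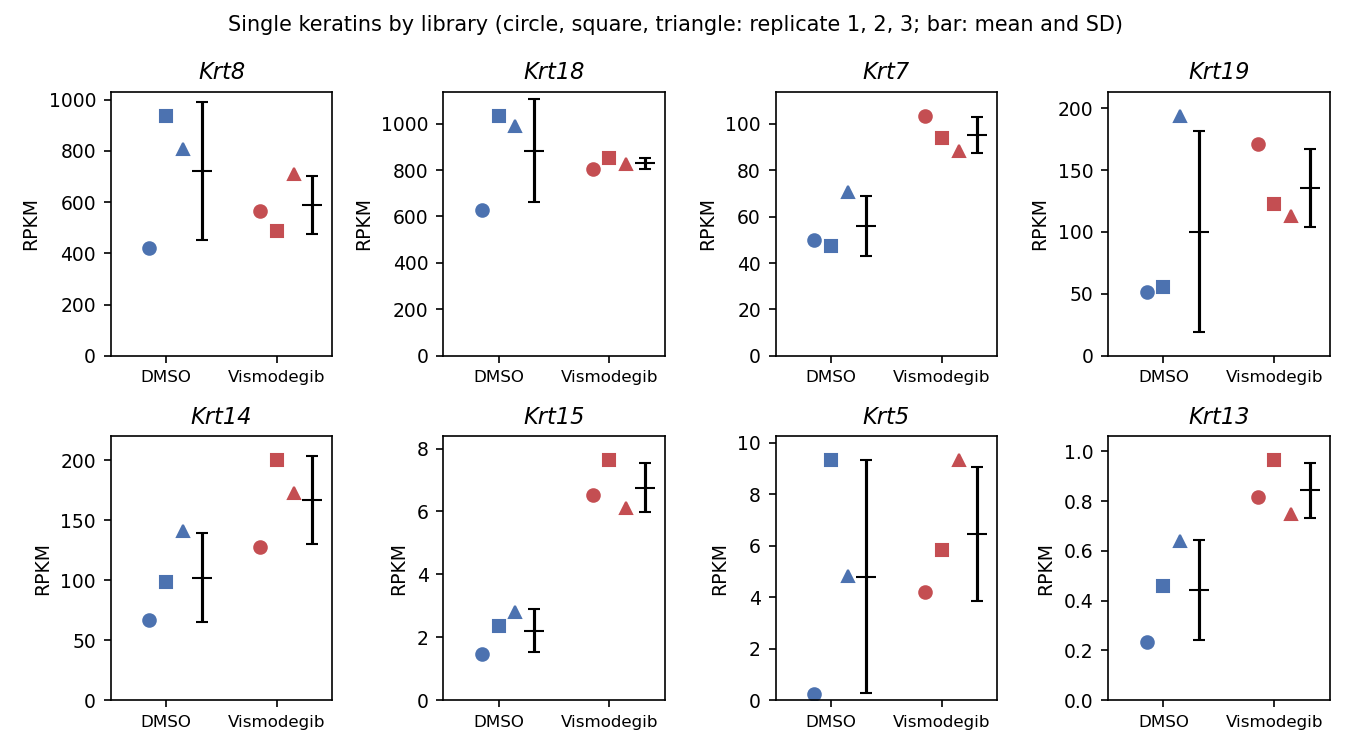
RPKM (vertical axis, from 0) of 8 keratins in each library, DMSO in blue and Vismodegib in red, with circle, square and triangle for replicates 1, 2 and 3 and a black bar for the mean and SD of each group (n = 3). The groups are apart in Krt7, Krt15 and Krt13, and overlap in Krt8, Krt18, Krt19, Krt14 and Krt5.

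The keratins of stressed skin were high in a single treated library. Krt6a, a type II keratin induced in wounded and proliferating epidermis, was at 0, 0.059 and 0.092 RPKM in the vehicle tumours, at 0.040 and 0.048 RPKM in Vismodegib replicates 1 and 2 and at 8.91 RPKM in Vismodegib replicate 3. Krt6b was listed at 0 in 5 libraries, where 3 reads would give 0.031 to 0.039 RPKM, and at 5.17 RPKM, or 670 reads, in Vismodegib replicate 3. Krt16, their type I partner, was at 0.085, 1.05 and 0.948 RPKM in the vehicle tumours, 0.414 and 0.568 RPKM in Vismodegib replicates 1 and 2 and 20.1 RPKM in replicate 3. In all 3 genes the other 2 treated libraries were at the level of the controls. Krt17, found in appendages and in stressed epidermis, was more widely expressed, at 2.51, 27.6 and 6.41 RPKM in the vehicle tumours and 7.98, 12.1 and 36.7 RPKM in the treated tumours. The log2 differences of Krt6a, Krt6b, Krt16 and Krt17 were 1.36, 1.17, 1.31 and 0.92, and without Vismodegib replicate 3 they were -0.01, 0, -0.15 and 0.30. The value of Krt6b, at 0 in all controls, depends on the pseudocount and is no bound. Krt6a and Krt6b share sequence: 39.9% of the 50-base windows of the longest Krt6a transcript also occur in Krt6b, so the split of reads between them is uncertain. Krt16 shares 12.4% of its windows with Krt14.

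Keratins of the differentiating epidermis followed the same library. Krt1, the type II keratin of the spinous layer, was at 0 RPKM in DMSO replicates 1 and 2 and in Vismodegib replicates 1 and 2, at 0.263 RPKM in DMSO replicate 3 and at 4.26 RPKM in Vismodegib replicate 3. Krt10, its type I partner, was present in each library, at 0.998, 1.78 and 2.90 RPKM in the vehicle tumours and at 1.93, 1.44 and 10.04 RPKM in the treated tumours. Krt77, a type II keratin of sweat gland ducts and skin, was at 0.082, 0 and 2.66 RPKM in the vehicle tumours and 0.041, 0.080 and 6.89 RPKM in the treated tumours. DMSO replicate 3 was thus the second highest library for all 3 genes. Their differences of 0.88, 0.70 and 0.445 turned to -0.20, -0.06 and -0.80 without Vismodegib replicate 3. With both libraries numbered 3 left out, Krt1 was at 0 in all that remained and the differences of Krt10 and Krt77 were 0.23 and 0.05.

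Genes of the cornified layer, the dead outer sheet of skin, moved with these keratins. Of 13 cornified layer genes with a row, 7 of which were tested, 12 were highest in Vismodegib replicate 3, beside 12.9% of genes tested. Their sum was 173 RPKM there, 1.86 and 3.82 RPKM in the other treated libraries, and 1.67 to 12.01 RPKM in the vehicle tumours, with the highest control in replicate 3. Calm4, a calmodulin-like protein of keratinocytes, was at 95.02 RPKM in Vismodegib replicate 3, at 2.21 RPKM in DMSO replicate 3 and at 0 in the other 4 libraries. Lor, which encodes loricrin of the cornified envelope, was at 17.6 RPKM in Vismodegib replicate 3, at 2.70 RPKM in DMSO replicate 3, and did not exceed 0.258 RPKM in the remaining libraries. In the whole table, 27 genes tested were highest in Vismodegib replicate 3 and at least 5 times the next library, or 0.228% of those tested, against 0.0169% to 0.102% for each other library. Of these 27, 4 were keratins (Krt16, and Krt1, Krt6a and Krt6b, which this library brought past the filter) and 5 were on the cornified layer list. Of those 5, Calm4, Krtdap, Sbsn and Lce1a1 likewise passed the filter only through this library, while Lor passed without it. The 0.228% thus counts in part genes let in by the library in which they are high. The remaining genes included Lce1b, Lce1c, Sprr2a1, Sprr2a2, Cnfn and Dmkn, which were not on that list, and Apoa1, Fabp2 and Guca2b. Whether skin was part of the Vismodegib replicate 3 sample was not tested.

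**Figure D5:**
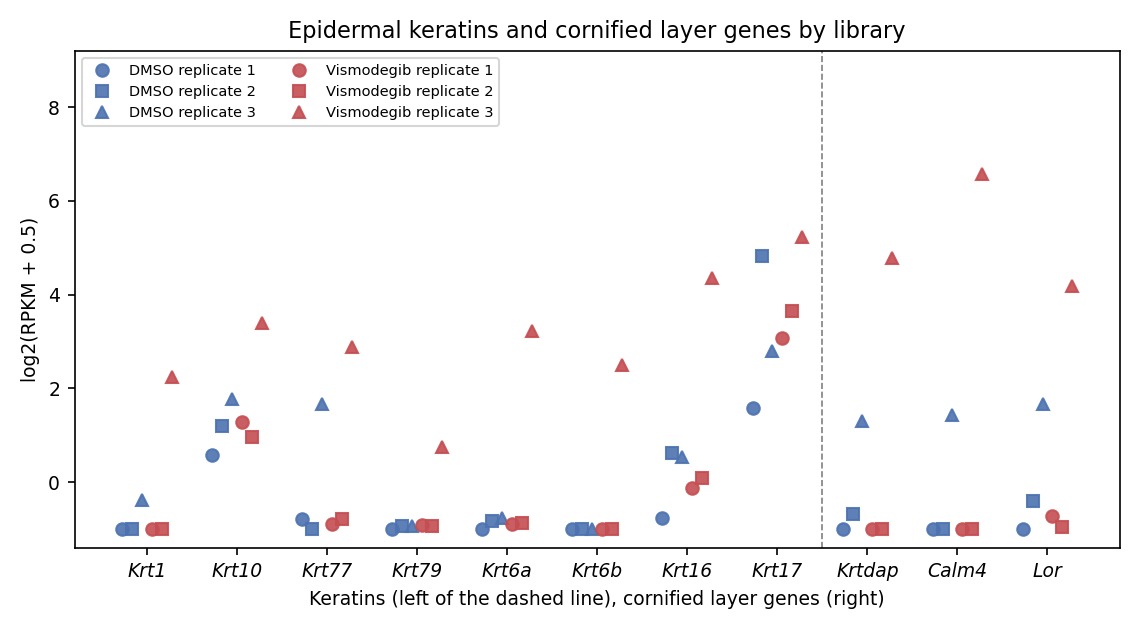
log2(RPKM + 0.5) (vertical axis) of 8 epidermal keratins, left of the dashed line, and 3 cornified layer genes, right of it, in each library (blue DMSO, red Vismodegib, circle, square and triangle for replicates 1, 2 and 3). The red triangle, Vismodegib replicate 3, is the highest point for each gene, and the blue triangle, DMSO replicate 3, is the next for Krt1, Krt6a, Krt10, Krt77, Krtdap, Calm4 and Lor.

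The 21 keratins below 0.5 RPKM included those of hair. Krt83, a hair shaft keratin, and Krt80, a type II keratin of many epithelia, lay just under the filter with means of 0.485 and 0.481 RPKM, while Krt13 and Krt42 were just above it with 0.643 and 0.709 RPKM. Krt83 was at 0.594, 0.343 and 0.188 RPKM in the vehicle tumours and at 0.535, 0.025 and 1.23 RPKM in the treated tumours, and 19.7% of its windows occur in Krt86. Krt79, a type II keratin of the hair follicle opening and sebaceous duct, was at 1.19 RPKM, or 170 reads, in Vismodegib replicate 3 and at no more than 0.030 RPKM elsewhere. Krt20, the type I keratin of intestinal and urothelial surface cells, was at 0.028, 0.283 and 0.038 RPKM in the vehicle tumours and at 0.249, 0.061 and 1.57 RPKM in the treated tumours. Krt88 ran from 0.159 to 0.493 RPKM over the 6 libraries. The other 16 never exceeded 0.122 RPKM in any library, and 11 of them were above 0 in 1 library alone. Among these 16 were 7 keratins of the inner root sheath and companion layer of the hair, which summed to at most 0.206 RPKM, and the hair shaft keratins Krt31, Krt32, Krt36, Krt81, Krt86 and Krt87. Of the 21, the groups did not overlap in Krt78, a suprabasal keratin, which had at most 1 read in a control and 4, 2 and 18 reads in the treated libraries, beside 3.49% of all genes under the filter. Exact two-sided permutation tests of the 21 gave p between 0.1 and 1, and no p under 0.1 is possible with 3 libraries on each side.

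The genes that keratins work with did not separate as a group. Desmosomes anchor keratin filaments to the membrane, and of 15 tested desmosome and linker genes 11 had differences above 0 (58.4% of all genes) and 4 below, none passed, and the median was 0.28. Jup, which encodes plakoglobin, was at 12.8, 14.4 and 19.1 RPKM in the vehicle tumours and 27.9, 21.4 and 19.9 RPKM in the treated tumours, without overlap but with DMSO replicate 3 close to Vismodegib replicate 3. Dsc2, a desmosomal cadherin, was at 1.93, 0.375 and 1.48 RPKM in the vehicle tumours and 4.61, 2.51 and 2.15 RPKM in the treated tumours. The groups did not overlap in Jup and Dsc2, 2 of the 15, beside 4.29% of all genes in this direction. Dsp, the plakin that binds keratins directly, was at 3.13 ± 1.53 RPKM in the vehicle tumours and 4.09 ± 0.820 RPKM in the treated tumours (n = 3 each).

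Of 13 tested regulators of epithelial identity, 12 had differences above 0, beside 58.4% of all genes, and 1 below, none passed, and the median was 0.32. Elf3, an epithelial transcription factor of the Ets family, read 34.4, 8.34 and 17.3 RPKM in the controls and 72.9, 43.7 and 53.4 RPKM under Vismodegib. Tfap2c, an AP-2 factor of the mammary lineage, read 0.827, 0.530 and 0.289 RPKM in the controls and 1.21, 1.30 and 2.02 RPKM under Vismodegib. The groups were apart in these 2 of the 13, beside 4.29% of all genes, with log2 differences of 1.66 and 0.95. Of 6 tested genes of other intermediate filaments, 1 had a difference above 0 (58.4% of all genes) and 5 below. Their median was -0.19, with none past the threshold. Vim, the filament protein of mesenchymal cells that 4T1 cells are also known to make, was at 121, 398 and 263 RPKM in the vehicle tumours and at 253, 210 and 116 RPKM in the treated tumours, so that Krt8 exceeded Vim in each library, by 2.24 to 6.11 times. Des, of muscle filaments, was the member above 0, at 8.84 ± 9.03 RPKM in the vehicle tumours and 18.4 ± 4.44 RPKM in the treated tumours (n = 3 each). Skeletal muscle genes summed to 19.0 to 208 RPKM in the controls and 95.1 to 187 RPKM in the treated libraries, and their part in the result was not tested. The Des difference of 1.46 had an unadjusted p = 0.042 by limma and did not pass adjustment.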

How the data were processed

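The authors deposited 1 table of RPKM values, gene symbols by 6 libraries. According to the submitters' notes on processing, the tools were Partek, SAMtools, HISAT2, STAR, cutadapt and bcl2fastq 2.17, and the build mm10. Which tool did what, with which annotation and whether by strand, is not given in the sources used here. Libraries were grouped by title. Genes averaging 0.5 RPKM or more were tested on log2(RPKM + 0.5) with limma 3.58.1 (R 4.3.3; lmFit, eBayes with trend, group as the only term, two-sided). This scale understates changes of low genes. The fit was tested on simulated data with normal noise of each gene's own spread and changes added to some genes. It called 8.28% of 2-fold, 68.7% of 4-fold and 84.6% of 8-fold changes.

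Library totals were read from the steps of low values in 6992 genes with 1 GENCODE M21 transcript; 83.6% to 85.4% of values up to 20 reads were whole within 0.02 reads. Limits from 3 reads cover counting error only. Reads per gene use the longest transcript. Totals take the smallest step as 1 read and could be too high by a whole-number factor. Krt5, Krt6a, Krt6b, Krt7, Krt8 and Krt10 overlap genes on the other strand and may hold their reads.

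Each keratin averaging 0.5 RPKM or more was named, with lower ones that were the highest by mean or did not overlap, and from other lists Epcam, Cdh1, Trp63, Vim, Dsp, Jup and up to 3 members with the smallest p. Members and lists were chosen with earlier results of these data known. Alternatives covered pseudocount, filter, scaling, moderation, library weights, a block by replicate number and each library left out. Scaling to epithelial markers, removal of trends on length and GC content, leaving out both replicates numbered 3, and setting the filter again without libraries numbered 3 were added after the data were seen.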

Additional observations from a re-analysis of the deposited data

How the results depend on the processing

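Under 1 setting a keratin passed: with library weights 1 keratin, Krt15, passed, among 420 genes. All genes past the threshold numbered 1 with the replicate number as a block, 0 to 19 over the fits leaving out 1 library each (19 without DMSO replicate 1, none a keratin) and 0 otherwise. No pairing by number was seen: deviations from the group means correlated at 0.0032, 0.038 and -0.305 across genes for replicates 1, 2 and 3. Libraries of unlike number correlated at -0.231 to 0.303. With 3 libraries a group, these values cannot tell whether the numbers mark pairs. In the block fit 0 keratins passed.

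The keratin median of 0.78 was 0.097 with no filter on low values, 0.17 without both replicates numbered 3 and 0 to 1.09 over the fits leaving out 1 library each. These fits kept the 17 members: the 0 is the value of Krt6b, which has no reads left without Vismodegib replicate 3. With the filter set again the median was 0.40 over 14 keratins without that library and 0.58 over 13 without both replicates numbered 3. Under the other settings it was 0.26 to 0.86.

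Of 346 keratin values under alternatives, 18 had the other sign, and 9 of the 17 keratins never did. With library weights the log2 differences were -0.19 for Krt1, -0.36 for Krt10, -0.37 for Krt19 and -1.85 for Krt77. Over the fits leaving out 1 library each they ran from -0.20 to 1.42 for Krt1, -0.060 to 1.16 for Krt10, -0.15 to 2.10 for Krt16, -0.013 to 2.05 for Krt6a and -0.80 to 1.30 for Krt77, each lowest without Vismodegib replicate 3. Krt5 ran from -0.13, without DMSO replicate 1, to 1.74. Krt18 ran from -0.29 to 0.070 and was at 0.041 without both replicates numbered 3. The cause of these sign changes was not tested. Scaling to epithelial markers moved the median of all genes from 0.05 to -0.32, and the keratin median to 0.39. Depth limits the 16 lowest keratins, which had at most 18 reads in any library.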

Other observations

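Krt20, an intestinal keratin, was highest in Vismodegib replicate 3 at 1.57 RPKM. Its second place was not clear, with DMSO replicate 2 at 0.283 RPKM and Vismodegib replicate 1 at 0.249 RPKM. A further 4 genes of intestinal lining, chosen after their values were seen, had Vismodegib replicate 3 highest and DMSO replicate 2 next. In these 4 genes, unlike Krt20, Vismodegib replicate 1 was far below DMSO replicate 2. Fabp2, the fatty acid binding protein of enterocytes, read 8.27 RPKM in Vismodegib replicate 3 and 1.49 RPKM in DMSO replicate 2, and no other library exceeded 0.102 RPKM. Apoa1, an apolipoprotein of intestine and liver, was at 12.7, 2.30 and at most 0.140 RPKM in the same order. Guca2b, which encodes uroguanylin, was at 2.54, 0.495 and at most 0.083 RPKM, and Vil1, the brush border protein villin, at 0.792, 0.145 and at most 0.033 RPKM. Krt23 did not follow this order, being listed at 0 in DMSO replicate 2.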
